A study of Homo sapiens with 4 samples.

Results

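The mRNA levels of 44 genes for CCCH zinc finger proteins were compared between HEK293T cells with and without the helicase HELZ. HELZ itself carries a CCCH zinc finger and was left out of the set. The members were listed by gene symbol, and all 44 were found among the 27011 genes of the count table. Of these, 38 were among the 10978 genes that the authors had selected for their comparison by expression level. RNA-Seq had been done on untreated cells of the human embryonic kidney line HEK293T, with 2 WT and 2 Helz-null libraries, each stated to be a biological replicate. The Helz-null cells are a line made by CRISPR-Cas9 editing, in which a small deletion shifts the reading frame of the helz gene, so differences between this edited line and its parent that do not come from HELZ cannot be told apart from the effect of the edit. Both cell types were plated the day before harvest, and total RNA was extracted.

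In a CCCH zinc finger, 3 cysteines and 1 histidine hold a zinc ion, and the small fold around it often binds single-stranded RNA. Proteins with such fingers act at most steps in the life of an mRNA. U2AF1 reads the 3′ splice site, CPSF4 takes part in recognition of the polyadenylation signal, and the muscleblind proteins choose between alternative exons. The ZFP36 and Roquin proteins bind elements in the 3′ UTR and bring in the CCR4–NOT deadenylase. Other members are ubiquitin ligases, antiviral factors or RNA-modifying enzymes.

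Library totals ranged from 41745401 to 70464140 counts, and the CCCH genes took between 0.266% and 0.274% of the counts of a library. The edited gene was checked first. HELZ had 99.8 and 103.9 CPM (counts scaled to library size with TMM factors) in WT replicates 1 and 2, and 36.98 and 37.9 CPM in Helz-null replicates 1 and 2, so that 36.8% of the transcript was left (log2FC -1.44 ± 0.042 SE, adjusted p = 2.13e-27). The direction of this difference matched the labels. A frameshift need not remove an mRNA, and the protein was not measured in these files.

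The fingers of the related genes described below are shown first, since several of these pairs moved in opposite directions. Each line gives the coding strand of the first finger of the protein, 5′ to 3′, from the GENCODE annotation on GRCh37, and capitals mark the codons of the 3 cysteines and the histidine. Where 2 ranges are given, the finger is split by an intron. The finger of HELZ begins at residue 184 and lies on the minus strand in exons 9 and 10, at chr17:65190083-65190090 and chr17:65186420-65186471. The makorin fingers lie at chr7:140178960-140178964 and chr7:140171760-140171811 on the minus strand (MKRN1), at chr3:12598671-12598675 and chr3:12610374-12610425 on the plus strand (MKRN2) and at chr15:23811230-23811286 on the plus strand (MKRN3, which has a single exon).
HELZ: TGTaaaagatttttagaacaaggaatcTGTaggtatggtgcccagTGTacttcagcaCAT
MKRN1: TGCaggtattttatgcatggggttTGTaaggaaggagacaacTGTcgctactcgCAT
MKRN2: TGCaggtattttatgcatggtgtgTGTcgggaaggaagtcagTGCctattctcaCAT
MKRN3: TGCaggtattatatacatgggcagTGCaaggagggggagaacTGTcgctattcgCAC

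The fingers of the Unkempt pair lie on the plus strand at chr17:73806004-73806050 and chr17:73808193-73808208 (UNK) and on the minus strand at chr16:1463847-1463893 and chr16:1453330-1453345 (UNKL), and are split by an intron at the same base. Those of the muscleblind genes lie within exon 2 at chr3:152018037-152018096 on the plus strand (MBNL1), at chr13:97928544-97928603 on the plus strand (MBNL2) and at chrX:131573523-131573582 on the minus strand (MBNL3). Those of RBM26 and RBM27 lie on the minus strand at chr13:79942865-79942880 and chr13:79940964-79941007 and on the plus strand at chr5:145610465-145610480 and chr5:145613013-145613056.
UNK: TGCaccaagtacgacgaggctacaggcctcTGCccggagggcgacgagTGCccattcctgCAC
UNKL: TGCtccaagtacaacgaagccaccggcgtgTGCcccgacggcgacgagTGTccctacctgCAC
MBNL1: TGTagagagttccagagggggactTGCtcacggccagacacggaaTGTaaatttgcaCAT
MBNL2: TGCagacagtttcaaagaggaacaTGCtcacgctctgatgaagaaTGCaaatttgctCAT
MBNL3: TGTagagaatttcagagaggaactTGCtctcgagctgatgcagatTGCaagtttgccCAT
RBM26: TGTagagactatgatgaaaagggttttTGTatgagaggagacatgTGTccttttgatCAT
RBM27: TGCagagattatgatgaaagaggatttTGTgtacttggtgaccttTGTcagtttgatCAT

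Within these stretches, MKRN1 shared 46 of 57 bases with MKRN3 and 43 of 57 with MKRN2, and MKRN2 and MKRN3 shared 35 of 57. UNK and UNKL shared 51 of 63 bases, and RBM26 and RBM27 shared 45 of 60. Among the muscleblind genes, MBNL2 and MBNL3 shared 48 of 60 bases, MBNL1 and MBNL3 shared 45, and MBNL1 and MBNL2 shared 44. The spacing searched for had 4 to 15 residues between the first cysteines, 4 to 6 before the last cysteine and 3 before the histidine. It was found in the canonical protein of 43 of the 44 members. The exception was ZC3HC1, a protein of the nuclear basket whose symbol carries the name of the class. The same search found it in 1.57% of the 10609 tested genes with a coding sequence, tested members included. Members were listed as genes of this class, so this difference was set by their choice.

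Levels per length differed widely among the CCCH genes. The highest mean FPKM in WT cells was that of U2AF1, at 223, followed by 82.4 for ZC3H15, which binds and stabilises a translational GTPase. The median over the 44 members was an FPKM of 13.2, and 27 members were above 10. At the low end, 7 members had a mean FPKM under 2 in WT cells. They were ZC3H12C, MKRN3, ZFP36, ZC3H12A, ZC3H12B and ZC3H6, between 1.94 and 0.425, and PARP12, for which neither WT library held a count.

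**Figure D1:**
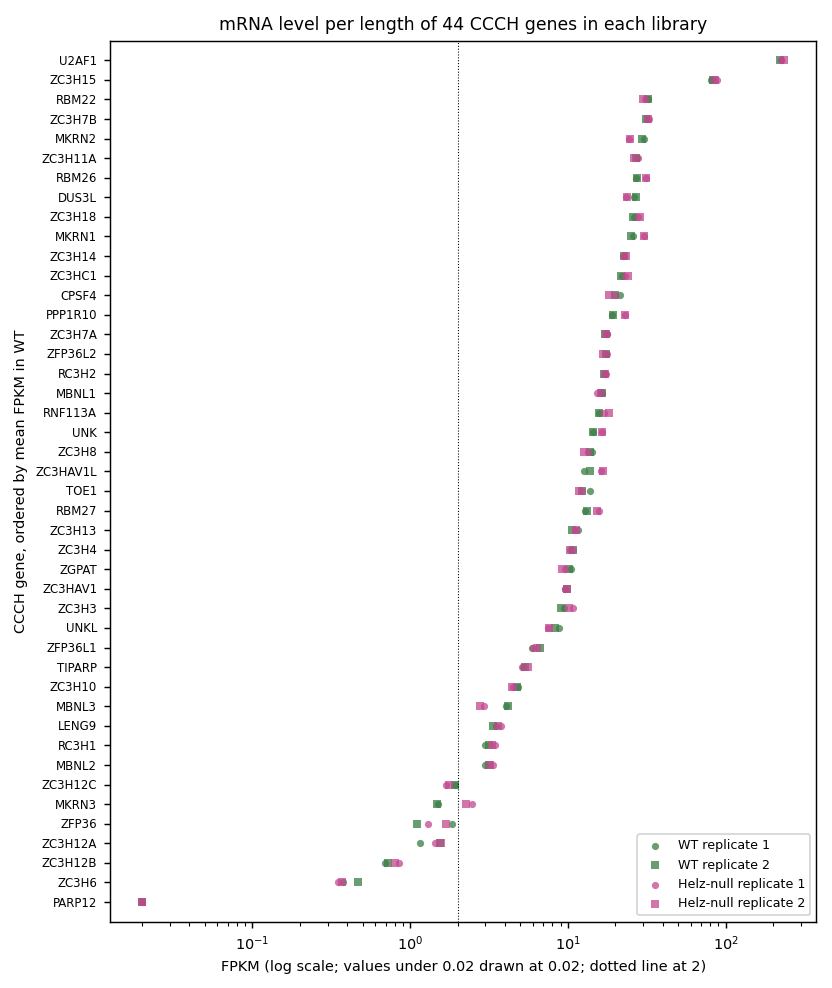
Levels per length (FPKM, log scale) of the 44 CCCH genes in each of the 2 WT and 2 Helz-null libraries, ordered by the mean in WT cells, with values under 0.02 drawn at 0.02. U2AF1 stands at the top with a mean of 223 in WT cells, and for most genes the 4 points lie close together compared with the distance between genes.

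Of the 38 CCCH genes in the comparison, edgeR called 7 as higher and 5 as lower in Helz-null cells (FDR under 0.005), and 26 were not called. The up-regulated genes were MKRN3, ZC3HAV1L, RBM27, MKRN1, PPP1R10, RBM26 and UNK, and the down-regulated genes were MBNL3, MKRN2, UNKL, DUS3L and RBM22. These are 18.4% and 13.2% of the 38 genes, beside 13.9% of all 10978 tested genes called up and 15.5% called down, so the share of CCCH genes called was close to that of all genes. Their median log2FC was -0.02 (-0.0009 over all tested genes) and their median absolute log2FC was 0.113 (0.106 over all tested genes).

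The changes were small. The absolute log2FC of the 12 called genes ranged from 0.14 to 0.62, with a median of 0.22, and only MKRN3 changed by at least 1.5-fold. The WT and Helz-null libraries did not overlap in 28 of the 38 members (73.7%), beside 70.6% of all tested genes. These 28 held the 12 called genes and 16 of the 26 that were not called, so a lack of overlap did not mark the called genes. When the test asked for a change of at least 1.2-fold, 0 members were called up and 1 was called down, MBNL3, beside 1.98% and 2.90% of all tested genes. DESeq2 gave 7 up-regulated and 4 down-regulated members, without RBM22, beside 1102 and 1288 of all 10978 genes (21.8% in both directions). With scaling by library size alone, 8 were called up and 4 down (2109 and 1318 over all genes, against 1524 and 1701 with TMM).

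**Figure D2:**
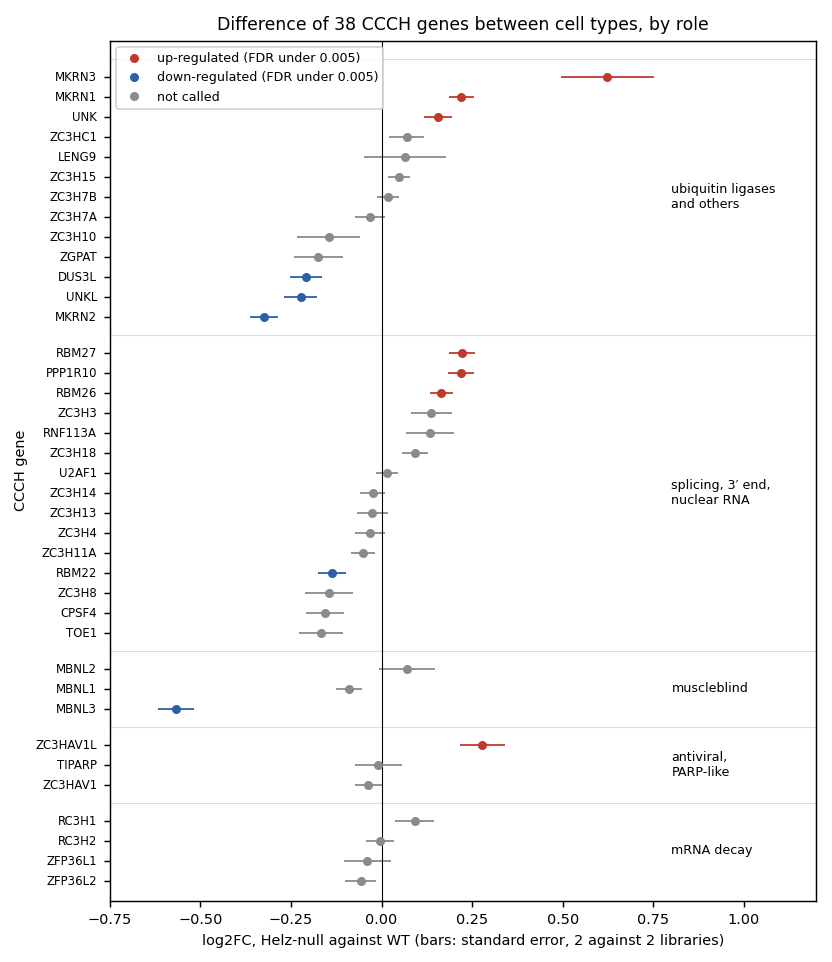
Log2FC of Helz-null against WT cells for the 38 CCCH genes in the comparison, grouped by role, with standard errors (2 against 2 libraries) and calls at an FDR under 0.005 in colour. Called genes lie on both sides of 0 among the ubiquitin ligases and in the nuclear group, and MKRN3 (0.62) and MBNL3 (-0.57) lie farthest from 0.

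The makorins, RING-type ubiquitin ligases that also bind RNA, split in direction. MKRN3, an imprinted gene expressed from the paternal copy whose loss leads to early puberty, had 4.20 and 4.15 CPM in WT and 6.75 and 6.20 CPM in Helz-null libraries. Both Helz-null values were above both WT values, with a log2FC of 0.62 ± 0.129 (SE, adjusted p = 0.000126). This gene was below an FPKM of 2 in both WT libraries (1.497 and 1.480) and above it in both Helz-null libraries (2.46 and 2.26), so a selection on that level could have kept it through its higher group alone. In the fit without this selection, over all genes with at least 1 count, its log2FC was also 0.62 (adjusted p = 6.57e-06).

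MKRN1, which was the most abundant makorin per length in Helz-null cells, rose by 16.5%. It had 101.1 and 97.8 CPM in WT and 115.8 and 116.1 CPM in Helz-null libraries (log2FC 0.22 ± 0.035, adjusted p = 1.93e-06). MKRN2 moved the other way. Its values were 89.998 and 87.1 CPM in WT and 70.4 and 71.2 CPM in Helz-null libraries, so that it decreased by 20.1% (log2FC -0.32 ± 0.038, adjusted p = 4.59e-09). The ratio of the FPKM of MKRN1 to that of MKRN2 was 0.845 and 0.845 in WT and 1.24 and 1.23 in Helz-null libraries, so the order of the genes changed. Whether reads were counted by strand is not given in the sources used here, so values of members that overlap another gene are uncertain to that extent. Of MKRN3, 25.2% of exon bases overlap a long non-coding RNA on the other strand.

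The Unkempt pair also moved apart. UNK, an RNA-binding protein known for translational control in early neurons, had 75.4 and 75.4 CPM in WT libraries and 83.9 and 84.1 in Helz-null libraries. All Helz-null values were higher (log2FC 0.16 ± 0.038, adjusted p = 0.00088), but the call was lost when either Helz-null library was left out (adjusted p = 0.00891 without replicate 1 and 0.0157 without replicate 2). The log2FC stayed at 0.16 and 0.15 in these smaller fits, in which the lone Helz-null library is assumed to vary like the WT libraries. UNKL, its paralog, had 56.6 and 53.95 CPM in WT and 47.0 and 47.7 in Helz-null libraries, and fell by 0.22 on the log2 scale (SE 0.046, adjusted p = 0.000125). The FPKM ratio of UNK to UNKL was thereby 1.65 and 1.73 in WT and 2.21 and 2.18 in Helz-null libraries. The exons of GNPTG cover 33.8% of the exon bases of UNKL on the opposite strand, and GNPTG had a log2FC of -0.01.

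Among the muscleblind genes, which encode regulators of alternative splicing that are sequestered by repeat RNA in myotonic dystrophy, only MBNL3 was called. MBNL3 had 49.5 and 51.5 CPM in WT libraries and 34.97 and 33.2 CPM in Helz-null libraries. It fell by 32.5% (log2FC -0.57 ± 0.051, adjusted p = 4.04e-12), the largest decrease among the 38 genes, and the log2FC stayed between -0.60 and -0.53 when each library was left out. MBNL1 had a log2FC of -0.09 ± 0.036 (adjusted p = 0.0374) and MBNL2 one of 0.07 ± 0.078 (adjusted p = 0.498). In WT cells the FPKM of MBNL3 was above that of MBNL2, with ratios of 1.35 and 1.34, and in Helz-null cells it was below, with ratios of 0.874 and 0.859. MBNL1 had the highest level of the 3 genes in every library.

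**Figure D3:**
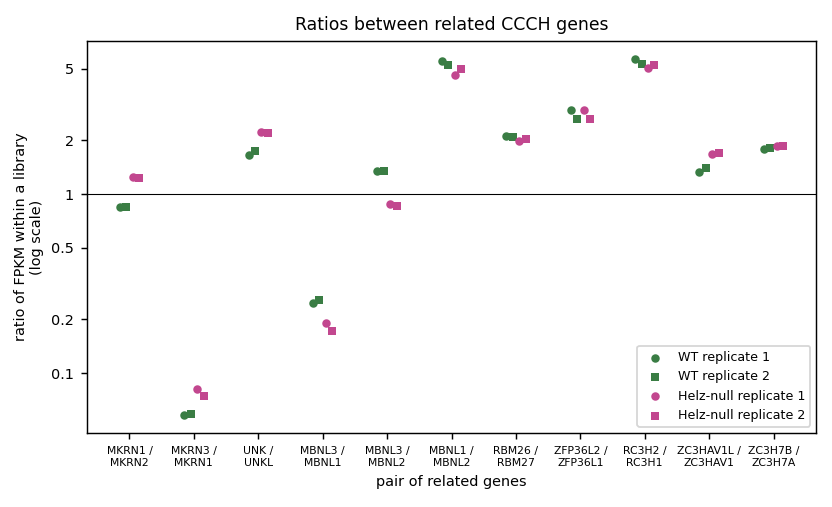
Ratio of FPKM between related CCCH genes within each library (log scale). The WT and Helz-null libraries lie on opposite sides of 1 for MKRN1 over MKRN2 (0.845 against 1.23 on average) and for MBNL3 over MBNL2 (1.34 against 0.866), and overlap for ZFP36L2 over ZFP36L1.

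Of 15 genes for splicing, 3′ end formation and other nuclear RNA handling, 3 were up-regulated and 1 was down-regulated, or 26.7% called beside 29.4% of all tested genes. RBM26 and RBM27 are nuclear proteins linked to the targeting of polyadenylated RNA to the exosome, and both rose. RBM26 had 146.0 and 148.2 CPM in WT and 164.6 and 165.0 CPM in Helz-null libraries (log2FC 0.16 ± 0.032, adjusted p = 4.64e-05). RBM27 had 86.8 and 89.2 CPM in WT and 104.1 and 101.2 CPM in Helz-null libraries (log2FC 0.22 ± 0.036, adjusted p = 3.34e-06). Here the paralogs rose by similar amounts, and the FPKM ratio of RBM26 to RBM27 was 2.10 and 2.07 in WT and 1.97 and 2.03 in Helz-null libraries. The annotation places a read-through transcript over 44.8% of the exon bases of RBM27 on its own strand.

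PPP1R10, a nuclear subunit of protein phosphatase 1 that acts in transcription termination, had 91.1 and 91.7 CPM in WT and 106.7 and 106.1 CPM in Helz-null libraries. The libraries of each group were almost equal, and the log2FC was 0.22 ± 0.035 (adjusted p = 2.55e-06). RBM22, a spliceosome protein, had 78.9 and 78.5 CPM in WT and 72.6 and 70.7 CPM in Helz-null libraries (log2FC -0.14 ± 0.039, adjusted p = 0.00394). This was the smallest of the called differences. The call of RBM22 was lost with DESeq2 (adjusted p = 0.0233), with library size only (0.0263), with upper quartile factors (0.00898), with filterByExpr (0.00513) and when any of the 4 libraries was left out (0.00537 to 0.0899). The log2FC lay between -0.16 and -0.10 in these fits.

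The other 11 genes of this group had log2FC values between -0.17 (TOE1, a nuclease that trims small nuclear RNAs) and 0.14 (ZC3H3, a factor of polyadenylation and export). U2AF1, the most highly expressed CCCH gene per length, had a log2FC of 0.01 ± 0.031. CPSF4 (log2FC -0.16 ± 0.053, adjusted p = 0.015) and TOE1 (-0.17 ± 0.060, adjusted p = 0.0209) were called at an FDR under 0.005 only without WT replicate 2 among the 4 libraries left out in turn. For TOE1, 20.8% of exon bases overlap MUTYH on the opposite strand, which had a log2FC of -0.36. The values of ZC3H11A (-0.05) are uncertain, since 87.3% of its exon bases are also assigned to ZBED6, which lies within it on the same strand.

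DUS3L, a tRNA dihydrouridine synthase with a CCCH finger, had 57.6 and 59.2 CPM in WT and 50.1 and 50.8 CPM in Helz-null libraries. It fell by 13.5% (log2FC -0.21 ± 0.045, adjusted p = 0.000205). With the makorins and the Unkempt pair, it makes 3 up-regulated and 3 down-regulated genes among 13 in the group of ubiquitin ligases and other proteins, or 46.2% called beside 29.4% of all tested genes. The 7 genes of this group that were not called ranged in log2FC from -0.17 (ZGPAT, a transcriptional repressor) to 0.07 (ZC3HC1). The 2 large paralogs ZC3H7A and ZC3H7B had log2FC values of -0.03 ± 0.041 and 0.02 ± 0.031.

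The antiviral protein ZAP, which binds CpG-rich viral RNA, is encoded by ZC3HAV1, and the adjacent gene ZC3HAV1L encodes a shorter relative of its RNA-binding part. ZC3HAV1L had 23.1 and 25.1 CPM in WT and 28.7 and 29.5 CPM in Helz-null libraries (log2FC 0.28 ± 0.062, adjusted p = 0.000331). Its groups did not overlap, but the call was lost without WT replicate 1 (log2FC 0.21, adjusted p = 0.0133) or without Helz-null replicate 2 (log2FC 0.26, adjusted p = 0.0099). ZC3HAV1 had 78.4 and 80.9 CPM in WT and 76.9 and 78.2 CPM in Helz-null libraries (log2FC -0.04 ± 0.039, adjusted p = 0.47). TIPARP, a mono-ADP-ribosyltransferase induced by dioxin, had a log2FC of -0.01 ± 0.064.

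The CCCH proteins that act in mRNA decay were of interest because several of them recruit CCR4–NOT. Of the 4 such genes in the comparison, 0 were called by edgeR, 0 had an unadjusted p below 0.05 and 0 were called by DESeq2. Over all tested genes these shares were 29.4%, 50.9% and 21.8%, and with 4 genes a count of 0 is not a result about the group. ZFP36L1 had 24.8 and 27.8 CPM in WT and 24.7 and 26.1 CPM in Helz-null libraries (log2FC -0.04 ± 0.064), and its groups overlapped. ZFP36L2 had 66.9 and 66.6 CPM in WT and 66.2 and 62.3 CPM in Helz-null libraries (log2FC -0.06 ± 0.042). These bind AU-rich elements, whereas the Roquins bind stem-loops. RC3H1, which encodes Roquin-1, had 34.6 and 36.6 CPM in WT and 38.9 and 36.96 CPM in Helz-null libraries (log2FC 0.09 ± 0.054). RC3H2, its paralog, had 74.4 and 73.3 CPM in WT and 73.8 and 73.5 CPM in Helz-null libraries (log2FC -0.0048 ± 0.039), so that all 4 of its values lay within a narrow range.

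The other 4 genes of the decay group and 2 further members were outside the comparison. ZFP36, which encodes tristetraprolin, had 3.29 and 1.96 CPM in WT and 2.24 and 2.92 CPM in Helz-null libraries, so the groups overlapped. ZC3H12A, which encodes the endonuclease Regnase-1, had 3.18 and 4.25 CPM in WT and 3.87 and 4.23 CPM in Helz-null libraries, again with overlap. ZC3H12B had a mean FPKM of 0.712 in WT and 0.827 in Helz-null cells, and ZC3H6 one of 0.425 and 0.361. PARP12 had 0 and 0 counts in WT and 2 and 4 counts in Helz-null libraries, too few for a fold change. In a fit over all 20904 genes with at least 1 count, in which 8.49% of genes were called up and 9.70% down, 0 of these 6 genes were called by edgeR, and 1 had an unadjusted p below 0.05, as did 34.2% of all genes in that fit. That gene was ZC3H12C, with a log2FC of -0.20 and an adjusted p of 0.0388, and DESeq2 also called 0 of the 6 (11.2% of all genes).

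Partners and targets of these proteins were listed as background to this result. Of 11 CCR4–NOT subunits, 1 was up-regulated (CNOT4, log2FC 0.20) and 1 was down-regulated (CNOT10, log2FC -0.17), with a median log2FC of 0.05. Called subunits were thus 18.2% of the list, beside 29.4% of all tested genes. Of 21 genes whose mRNAs are textbook examples of AU-rich element control, 11 were in the comparison, and 3 were up-regulated and 4 down-regulated, with a median of -0.07. The 7 called genes were 63.6% of the 11, beside 29.4% of all tested genes. Their log2FC values lay on both sides of 0, as for JUNB (0.72 ± 0.092) and CCND1 (-0.33 ± 0.042). Whether these mRNAs are targets of the members in these cells was not tested. Among 9 further CCCH genes in the comparison that were not in the set, 0 were called up and 2 were called down. The 2 genes were PRR3 (log2FC -0.28 ± 0.044) and the nucleoporin gene NUPL2 (log2FC -0.24 ± 0.052). They were 22.2% of the 9, beside 29.4% of all tested genes called in either direction.

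The position of the called genes in the genome was compared with the changes around them. For each member, the median log2FC was taken over the tested genes, other than members, within 5 Mb of its start. It was between -0.07 and 0.06 for 32 of the 38 members in the comparison and beyond 0.15 in either direction for the other 6, a limit that was set after these values were seen. Of those 6, 5 were called, namely ZC3HAV1L, MKRN1, RBM26, RBM27 and MKRN2, and the sixth was ZC3HAV1. Over all tested genes 29.4% were called. The share called among all tested genes with such neighbours was not counted, so 5 of 6 is not a result about these members.

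ZC3HAV1L (chr7:138710452-138720788) lay among 34 such neighbours, of which 25 were up-regulated and 0 down-regulated, with a median log2FC of 0.21. The neighbours of MKRN1 (chr7:140152833-140179336) had a median of 0.23, with 18 of 26 up-regulated. RBM26 (chr13:79885959-79980612) had 13 neighbours, 12 of them up-regulated, with a median of 0.40, and its own log2FC of 0.16 was below that. Those of MKRN2 (chr3:12598556-12627707) had a median of -0.19, with 32 of 57 down-regulated and 1 up-regulated. The directions of the genes and of their surroundings were therefore the same in these 4 cases, and the part of the chromosomal surroundings in these differences was not tested.

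After the median of the neighbours was subtracted, MKRN1 stood at -0.01, ZC3HAV1L at 0.07, RBM26 at -0.23, RBM27 at 0.04 and MKRN2 at -0.13. RBM26 thus turned in sign and MKRN2 kept its direction. The value of MKRN1 was smaller than its SE of 0.035, and relative to neighbours within 2 Mb, a window chosen after seeing the data, it was 0.04. ZC3HAV1 stood at -0.24 below its neighbours. For RBM27 (chr5:145583168-145668786), the median of 55 neighbours was 0.18 and that of the 33 that are not gamma-protocadherin genes was 0.0083, so the median was near 0 without that gene cluster and RBM27 stood at 0.21 relative to it, a choice of neighbours made after seeing the data. The remaining 7 called genes had neighbours with medians between -0.01 (PPP1R10) and 0.06 (MKRN3, with 8 neighbours). Relative to these, MKRN3 stood at 0.56, MBNL3 at -0.58, PPP1R10 at 0.23, UNK at 0.14, UNKL at -0.24, DUS3L at -0.22 and RBM22 at -0.16.

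The coding sequences of the 7 up-regulated genes had a median length of 2430 nt and a median GC content of 56.6%, with a range of 43.0% to 62.1%. Those of the 5 down-regulated genes had medians of 1260 nt and 52.2%, with a range of 49.9% to 66.9%, and those of the 26 genes not called had medians of 1532 nt and 53.3%. Over all tested genes the medians were 1368 nt and 52.1%. The ranges of GC content overlapped between the groups. The letters TATTTAT, a core of AU-rich elements, were found on the sense strand of the canonical 3′ UTR of 20 of the 44 members (45.5%), against 36.3% of 10598 tested genes with a 3′ UTR. Among called genes the letters were found in 2 of 7 that rose and 2 of 5 that fell, and among genes not called in 13 of 26.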

How the data were processed

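Total RNA from 2 WT and 2 Helz-null HEK293T cultures was sequenced. Per the labels and the methods of the study, Bowtie2 was used against ribosomal RNA, TopHat2 for mapping to hg19 and QuasR for counting per gene, and the deposited counts are raw. Versions, gene annotation and use of strand are not given in the sources used here. A second table of the authors holds log2 fold changes, p-values and FDR values from edgeR, of which only the list of 10978 genes was used.

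Counts of these genes were analysed with edgeR 4.0.16 in R 4.3.3 (TMM, glmQLFit, glmQLFTest, genotype as the only term, Benjamini-Hochberg adjustment over all genes, calls at an FDR under 0.005), and DESeq2 1.42.0 was an alternative. Standard errors were derived from the log2FC and the F statistic, and FPKM from the deposited gene width. The biological coefficient of variation was 2.60%. On data simulated from these libraries, 197 of 200 changed genes were called in the comparison, and 0 unchanged ones, over 10969 genes.

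Other alternatives were another scaling or filter, a test against a 1.2-fold change, an FDR of 0.05, counts divided by 2, a replicate block and leaving out each library. Gene positions and sequences came from GENCODE release 44 on GRCh37. Of the tested genes, 10379 matched by symbol, 517 through a RefSeq synonym and 82 not at all. Members and lists were chosen with earlier results of these data known. Values per library are given for called members whose groups do not overlap and for 6 decay factors, and other members by counts, ranges or single log2FC values. The values per library of ZC3HAV1 and PARP12 were added, and JUNB, CCND1 and genes that overlap a member were named after their values were seen. p-values measure the spread between cultures of 1 line per genotype, and 3 counts correspond to between 0.0426 and 0.0719 CPM.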

Additional observations from a re-analysis of the deposited data

How the results depend on the processing

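The counts of 7 up-regulated and 5 down-regulated CCCH genes stayed within 1.5 times under every setting tried except 2. A test against a change of at least 1.2-fold called 0 up and 1 down (217 and 318 over all genes, against 1524 and 1701), and an FDR under 0.05 called 9 up and 9 down (2371 and 2506 over all genes), with MBNL1, CPSF4, TOE1, ZC3H3, ZC3H18 and ZGPAT added. Leaving out 1 library, with the lone library of that group assumed to vary like the other group, gave 5 to 7 up and 4 to 6 down, and a log2FC of HELZ from -1.47 to -1.41. Same-numbered libraries did not deviate together (r = 0.034 over 2 pairs), so the numbers were not shown to pair the samples; with a replicate block, 7 were called up and 5 down, the median was -0.018 and HELZ stood at -1.45 (1677 and 1841 calls over all genes).

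The members' median log2FC (-0.0168) was near 0. It moved to 0.0163 with library size only and to -0.0025 with upper quartile factors. With filterByExpr on the whole table it was -0.0275, but over 43 members instead of the 38 of the comparison. Relative to neighbours within 5 Mb it was -0.0258, and it lay between -0.0092 and 0.0022 when a library was left out.

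Signs turned for genes that were not called. With library size only they were RC3H2 (0.0284), TIPARP (0.0241), ZC3H4 (0.0019), ZC3H13 (0.0075), ZC3H14 (0.0086) and ZC3H7A (0.00086). With upper quartile factors they were RC3H2 (0.0094) and TIPARP (0.0052). When each library was left out, the ranges across 0 were -0.0135 to 0.0068 for RC3H2, -0.0898 to 0.0535 for ZC3H13, -0.126 to 0.0395 for ZFP36L1, -0.0772 to 0.0441 for TIPARP, -0.0200 to 0.0442 for U2AF1 and -0.059 to 0.00495 for ZC3H14. The median over all tested genes also moved, from -0.0009 to 0.0321 with library size only and to 0.0131 with upper quartile factors. The cause of the turned signs was not tested. Of called genes, relative to neighbours within 5 Mb, RBM26 turned to -0.233 and MKRN1 to -0.013, and within 2 Mb RBM26 turned to -0.142, whereas MKRN1 stood at 0.038. The call of RBM22 was also lost with DESeq2, library size only, upper quartile factors and filterByExpr. The 2 Mb window and the neighbours without gamma-protocadherins were chosen after seeing the data. Of 651 single-gene values under all settings, 571 kept direction and call, or moved by less than the spread between replicates.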
